A study of Rattus norvegicus with 12 samples.

Results

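The TGF-beta and BMP family was read here through every non-control probe whose gene name in the scanner files began with Tgfb, Bmp followed by a digit or r, Gdf followed by a digit, Inha, Inhb, Acvr or Smad followed by a digit. This rule took 59 of the 30367 probes on the array and 50 genes. Names and not measured values decided which probes entered, although the family was chosen with earlier results of these data known. The rule also took 4 genes that carry the name without being a ligand, receptor or SMAD, namely Bmp1, Tgfbi, Tgfb1i1 and Tgfbrap1, and these were kept apart.

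The study asked what chronic unpredictable stress (CUS) did to the transcriptome of fat cells in rats. RNA came from epididymal adipocytes of male Fisher rats, about 12 weeks old at purchase, that met 2 varying stressors a day for 35 days (CUS, 6 rats) or were handled once every 2 days over the same 35 days (control, 6 rats), with 1 single-colour array per rat and no genetic change in either group. Adipocytes were freed from the fat pad with collagenase. The labels are not of one mind on the cell, since the source field has adipocytes and the protocol for extraction has preadipocytes. All CUS arrays were on 1 slide and all control arrays on another, so slide and stress cannot be told apart, and p-values measure the spread among the 6 arrays of a slide.

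Ligands of this family are secreted dimers that bring type II and type I receptor kinases together. The type I receptor then phosphorylates receptor SMADs, with TGF-betas and activins acting mainly through Smad2 and Smad3 and BMPs through Smad1, Smad5 and Smad9, and these enter the nucleus with Smad4 while Smad6 and Smad7 oppose them. In fat, BMP4 is known for commitment of precursors to the adipocyte lineage, TGF-beta for opposing adipocyte differentiation and for matrix production, and activin B and GDF3 for signalling through the type I receptor Acvr1c, which is abundant in white adipocytes.

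The probe sequences, 60 bases long in those shown here, are part of the scanner files. The ligand probes below are those of Gdf15, Bmp6 and Inhba, which differed between groups and are described further down, of the close relatives Gdf5, Gdf6 and Gdf7, where a probe must tell paralogs apart, and of Bmp4, for its known role in fat. They are written 5′ to 3′ on the transcript strand. Capitals mark cysteine codons in the reading frame of the ligand, and in Inhba also the stop codon that follows them. The cysteines of the mature ligand form the knot that the whole family shares.
Gdf15: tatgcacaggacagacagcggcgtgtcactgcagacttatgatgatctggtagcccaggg
Bmp6: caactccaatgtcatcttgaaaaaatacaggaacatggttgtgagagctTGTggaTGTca
Inhba: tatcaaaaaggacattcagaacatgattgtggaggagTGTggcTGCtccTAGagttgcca
Gdf5: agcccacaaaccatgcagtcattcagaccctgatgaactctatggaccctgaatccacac
Gdf6: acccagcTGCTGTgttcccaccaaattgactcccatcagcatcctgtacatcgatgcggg
Gdf7: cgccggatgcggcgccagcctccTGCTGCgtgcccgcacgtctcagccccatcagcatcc
Bmp4: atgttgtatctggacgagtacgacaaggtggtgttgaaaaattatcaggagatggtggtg

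The longest run of bases shared exactly between the Gdf6 and Gdf7 probes was 13 bases, and it was 5 bases between Gdf5 and either of them. Bmp4 and Bmp6 shared 8. Among all 59 family probes, 1 shared 20 bases or more with a probe of a gene of another name, and this was Inhba, with 22 bases in common with the probe of Nodal, another ligand of the family. The Nodal probe was too dim to be tested. In rn4, the genome build named in the array files, the Gdf15 probe lies at chr16:19313390-19313449 on the plus strand, Bmp6 at chr17:32380203-32380262 on the minus strand, Inhba at chr17:57244565-57244624 on the minus strand, Gdf6 at chr5:23755911-23755970 on the plus strand, Gdf7 at chr6:31857470-31857529 on the minus strand and Bmp4 at chr15:22283362-22283421 on the minus strand. The files give no position for the Gdf5 probe. Exon limits in rn4 were not used here.

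For 9 genes the array has 2 probes, called here the brighter and the dimmer probe. In 3 of these one probe was called and the other was not, and a stretch of 30 bases of each of the 6 probes is shown for that reason. Capitals mark a poly(A) signal hexamer, AATAAA or ATTAAA, where one is present in the stretch.
Tgfb2 brighter probe: tacatggatattATTAAAatagacgggtct
Tgfb2 dimmer probe: ttacaacatcctctggctcagtgggcagct
Acvr2b brighter probe: taaagagtccagcatctaagcccaggacac
Acvr2b dimmer probe: atcatcacgtggaacgagctgtgtcatgtg
Inhbb brighter probe: tttAATAAAgccctccttaggttctgtttc
Inhbb dimmer probe: agtgaccctttgactgtctgtcacttgggt

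The brighter Tgfb2 probe lies at chr13:102718952-102719009 and the dimmer one at chr13:102801650-102801709, both on the minus strand and with starts 82698 bases apart. The Acvr2b probes, on the plus strand at chr8:124395674-124395733 and chr8:124392440-124392499, are 3234 bases apart, and the Inhbb probes, on the minus strand at chr13:32171058-32171117 and chr13:32172165-32172224, are 1107 bases apart. Either hexamer occurs in 7 of the 59 family probes (11.9%) and in 11.2% of all probes on the array.

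Levels are given as the log2 of the processed signal minus the log2 of the 75th percentile of the same array, so that 0 is the 75th percentile, and differences as CUS minus control on that log2 scale with their standard error (SE). A probe was tested when it stood well above background, by the scanner's own mark, on at least 6 of the 12 arrays. A change was called at a Benjamini-Hochberg adjusted p under 0.05 from limma, adjusted over all 19727 tested probes. Levels of different probes cannot be compared, since each binds its target with its own strength.

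Before scaling, the 75th percentile was an intensity of 541 to 627 on the CUS arrays and of 230 to 399.7 on the control arrays, and 60.4% to 67.3% of probes were well above background. Adipocyte markers were strongly detected in both groups, with a mean level over 10 markers of 4.82 to 5.16 in CUS and 4.54 to 5.57 in control. Of these 10 markers 3 were higher and 3 lower in CUS, against 24.2% and 25.8% of all genes read from the brightest probe. Without control replicate 3, described next, 6 were higher and 3 lower. Control replicate 3 stood apart. Its 75th percentile was the lowest, its adipocyte marker mean of 5.57 lay above the 4.54 to 4.75 of the other controls, and its endothelial marker mean of -0.73 lay below their 0.87 to 1.32. It was also the control array with the lowest level for 23 of the 47 tested family probes (48.9%), against 25.4% of all tested probes, and the highest for 12 (25.5%), against 42% of all tested probes. Family probes whose call or sign turned without it are given with and without it. Some values that were not called moved as well, such as Bmp7 from -0.17 to -0.51 and Smad1 from -0.10 to -0.22. Such values are described further down with all arrays.

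Of the 59 probes, 47 were tested, which covered 40 genes, and 38 of these were well above background on all 12 arrays. In CUS 10 of the 47 probes were higher (21.3%) and 10 lower (21.3%), against 24.7% higher and 25.4% lower among all tested probes. Calls in either direction took 42.6% of the family and 50.1% of all tested probes, so the family was called no more often than the array at large. Differences of at least 2-fold were found for 5 higher probes (10.6%, against 3.4% of all tested probes) and 4 lower probes (8.51%, against 8.51%), by measured signal. The 5 include Bmp6, whose control signal is only an upper bound, and Acvr1, whose control signal was above background on 1 array. The median difference over the family was -0.10, and it was -0.02 over all tested probes. The groups did not overlap at all for 7 probes (14.9%, against 21.8%), with 3 entirely above the controls (6.38%, against 10.6%) and 4 entirely below (8.51%, against 11.2%). Bmp6 and Acvr1 are among these 3 and among the 10 higher calls, and passed the filter through their 6 CUS arrays. Their place in these counts is thus partly fixed by the filter. Without control replicate 3, 9 family probes were higher (29.6% of all tested probes) and 15 were lower (29.9% of all tested probes). All CUS arrays then lay above the other 5 controls for 5 family probes (20% of all tested probes) and below them for 9 (18.8% of all tested probes).

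**Figure D1:**
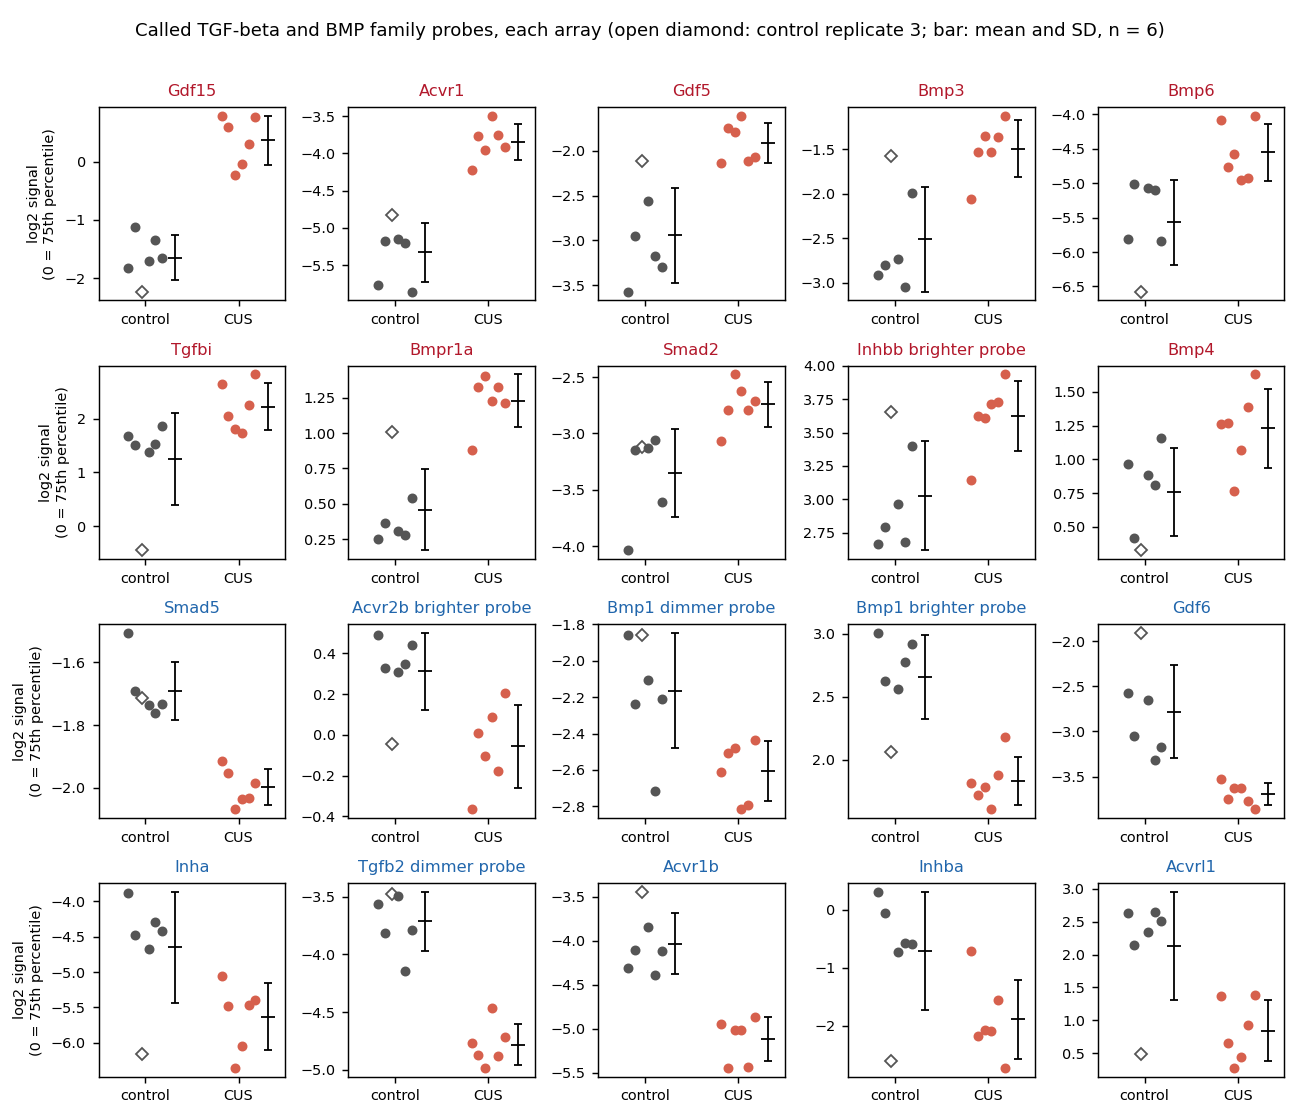
Level on each array of the 20 called family probes, as log2 signal with 0 at the 75th percentile of the array, for 6 control and 6 CUS rats, with the bar giving the mean and SD. Red names rose and blue names fell; Gdf15 and Acvr1 show no overlap between groups, and the open diamond, control replicate 3, lies far from the other controls for Acvrl1, Inhba, Inha and Tgfbi.

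Directions depend on how arrays are brought to 1 scale, because the CUS arrays were brighter. Scaling on the spike-in probes instead of the 75th percentile moved the median difference of all tested probes from -0.02 to 0.81, scaling on the median moved it to 0.25 and normexp background correction to -0.18. Under spike-in scaling 31 family probes were called higher and 0 lower, with all 31 calls higher (100%) where 96.4% of all calls were higher, against 50% and 49.3% in the scaling used here. Under normexp correction 8 were higher and 23 lower, so that 25.8% of the family's calls were higher, against 33.3% of all calls. A rise or a fall therefore means a change relative to the bulk of the probes on the array. Normexp correction also adds an offset of 50 to every signal before the logarithm. A probe dimmer than the offset then mostly carries the offset, which scales lower on the brighter CUS arrays. The sign of such dim probes under normexp correction cannot be read as their direction. The calls for Bmp3, Bmp4, Bmpr1a, Gdf15, Gdf5 and the brighter Inhbb probe were higher in each of the 6 other scaling, background and value-table settings, and 0 of the 10 lower calls held in each of them.

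**Figure D2:**
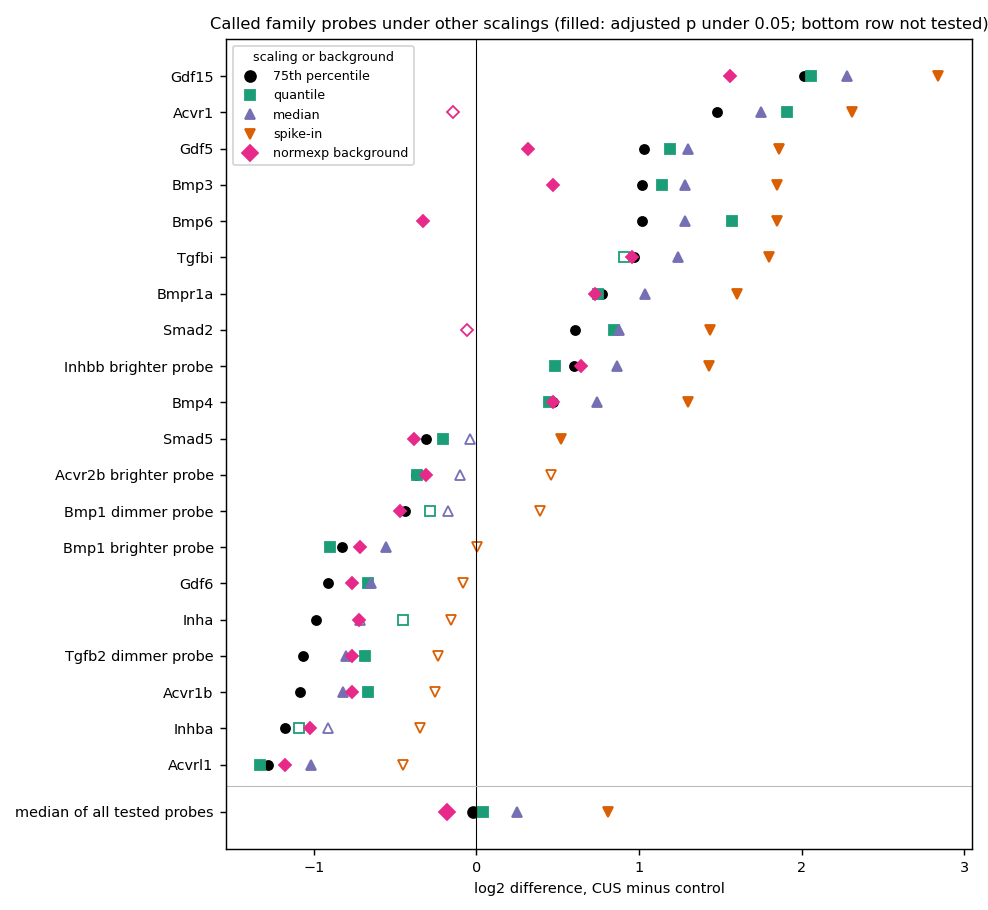
Difference in log2 signal, CUS minus control, of the 20 called family probes under 5 ways of scaling or background correction, with filled symbols for adjusted p under 0.05 and the median of all 19727 tested probes in the bottom row. The spike-in symbols lie to the right of the others throughout, normexp moves the dim probes Acvr1, Bmp6 and Smad2 to or below 0, and Gdf15 stays well above 0 in all 5.

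Among the TGF-betas, the 3 isoforms that signal through Tgfbr2 and Tgfbr1, 1 of 4 tested probes was lower in CUS (against 25.4% of all tested probes) and none was higher (against 24.7%). This was the dimmer Tgfb2 probe, whose level ran from -4.98 to -4.47 with a median of -4.82 in CUS and from -4.14 to -3.48 with a median of -3.68 in control. All CUS arrays lay below all control arrays. The CUS levels were dim, and probes above background on no array gave a median difference of -0.80, so the size of the fall is uncertain. The difference was -1.07 (SE 0.13, limma adjusted p = 5.35e-05), a 2.09-fold lower signal, and without scaling between arrays and under spike-in scaling it was smaller, -0.29 and -0.24, and no longer called.

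The brighter Tgfb2 probe did not repeat that call with all arrays. Its CUS levels ran from -4.27 to -3.27 (median -4.07), and its control levels from -5.30 to -2.70 (median -2.89). The single control array below the CUS range was control replicate 3, and the difference was -0.59 (SE 0.40, adjusted p = 0.231). Tgfb1, the most widely expressed isoform, had levels of -3.83 to -2.77 (median -3.47) in CUS and -4.46 to -2.60 (median -2.89) in control, a difference of -0.25 (SE 0.30, adjusted p = 0.497). Tgfb3 ran from -1.64 to -0.43 (median -1.15) in CUS and from -2.67 to -0.00 (median -0.31) in control, a difference of -0.42 (SE 0.41, adjusted p = 0.397). For both, control replicate 3 was the lowest of the 12 arrays.

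Without that array, all 4 TGF-beta probes were called lower, where 29.9% of all tested probes were lower. The brighter Tgfb2 probe then differed by -0.98 (SE 0.20, limma adjusted p = 0.00127), Tgfb3 by -0.83 (SE 0.20, adjusted p = 0.00349) and Tgfb1 by -0.53 (SE 0.19, adjusted p = 0.0283). These calls were again tied to the scaling. With that array left out, Tgfb1 was -0.28 under quantile normalization and -0.27 under median scaling, neither called, and it turned to 0.22 under spike-in scaling. Tgfb3 stayed negative in the same settings, at -0.80, -0.57 and -0.09, the last not called.

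Activins are dimers of beta subunits, and inhibins pair a beta subunit with the alpha subunit Inha. The subunits went in different directions: the brighter Inhbb probe, for the beta B subunit of activin B, was higher, and Inhba, the beta A subunit, and Inha were lower. The level on the brighter Inhbb probe was 3.15 to 3.93 (median 3.67) in CUS and 2.67 to 3.65 (median 2.88) in control. The groups overlapped in part, and the difference was 0.60 (SE 0.19, adjusted p = 0.0182), or 1.51-fold. The dimmer Inhbb probe ran from 0.82 to 1.60 (median 1.00) in CUS and from 0.40 to 1.01 (median 0.79) in control, with a difference of 0.33 (SE 0.15, adjusted p = 0.0749) that missed the threshold.

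Inhba had levels of -2.73 to -0.72 (median -2.08) in CUS and -2.62 to 0.30 (median -0.59) in control. All but 1 of the CUS arrays were below all controls other than replicate 3. The difference of -1.18 (SE 0.45, adjusted p = 0.0436) was a 2.26-fold lower signal, and it was a fragile call, lost on leaving out any 1 of 10 arrays, with adjusted p up to 0.094. Inha ran from -6.36 to -5.05 (median -5.47) in CUS and from -6.16 to -3.88 (median -4.45) in control, close to background, and was well above it on 5 arrays of each group. Its difference was -0.98 (SE 0.34, adjusted p = 0.0289), and the call was lost on leaving out any 1 of 6 arrays. Inhbc and both Inhbe probes, subunits known from liver, were too dim to be tested.

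Of the 10 higher calls in the family, 5 were BMP or GDF ligands, the role with 14 of the 47 tested probes. Of these 14 probes 5 were higher, 1 was lower and 8 were not called, with a median difference of 0.06. Among all tested probes 24.7% were higher and 25.4% lower. Gdf15, a stress-responsive member that acts through a receptor in the hindbrain rather than through the type I and type II kinases, had the largest difference of the whole family. Its level was -0.23 to 0.78 (median 0.46) in CUS and -2.23 to -1.11 (median -1.68) in control. Every CUS array was above every control array by a wide gap, and the difference was 2.01 (SE 0.22, limma adjusted p = 2.63e-05), or 4.03-fold.

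Gdf5, a BMP-type ligand known from joint formation, had levels of -2.14 to -1.61 (median -1.93) in CUS and -3.57 to -2.11 (median -3.06) in control. The only control array inside the CUS range was replicate 3, and the difference was 1.03 (SE 0.22, adjusted p = 0.00216), or 2.04-fold. Bmp3, an atypical BMP that opposes others in bone, ran from -2.06 to -1.12 (median -1.45) in CUS and from -3.05 to -1.58 (median -2.77) in control. Its difference was 1.02 (SE 0.25, adjusted p = 0.00509), or 2.02-fold, and 2 controls reached into the CUS range.

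Bmp6, best known as the liver signal for hepcidin, was well above background on all 6 CUS arrays and on 0 control arrays. Its measured level was -4.95 to -4.02 (median -4.67) in CUS and -6.58 to -5.01 (median -5.46) in control. The groups did not overlap. The measured difference was 1.02 (SE 0.28, limma adjusted p = 0.00928), but the control values are only a bound. Against the higher of the measured signal and the lowest signal well above background on each control array, the CUS signal was 1.78-fold higher. A higher floor would give a smaller value. Under normexp correction the sign turned, to -0.33, and the probe was called lower (adjusted p = 0.0064). For so dim a probe the offset added there leaves no readable direction.

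Bmp4 rose by less. Its level was 0.77 to 1.63 (median 1.26) in CUS and 0.32 to 1.16 (median 0.85) in control, with wide overlap, and the difference was 0.47 (SE 0.17, adjusted p = 0.0343), or 1.39-fold. Leaving out any 1 of 6 arrays ended the call, control replicate 3 among them (0.38, adjusted p = 0.0553).

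Gdf6 was the only BMP or GDF ligand probe called lower with all 12 arrays. Its CUS levels ran from -3.86 to -3.53 (median -3.69) and its control levels from -3.32 to -1.91 (median -2.85), without overlap. The difference was -0.91 (SE 0.20, adjusted p = 0.00281), while it was -0.14 without scaling and -0.08 under spike-in scaling, not called in either. Gdf5 and Gdf6 therefore stood on opposite sides, and Gdf7, the remaining close relative, was not called, with -2.37 to -2.002 (median -2.28) in CUS, -2.62 to -1.91 (median -2.24) in control and a difference of 0.00 (SE 0.12, adjusted p = 0.979).

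Bmp2 and Bmp7, the latter known for brown fat formation, showed no call. Bmp2 ran from -0.35 to 0.43 (median 0.04) in CUS and from -1.22 to 0.49 (median 0.03) in control, a difference of 0.16 (SE 0.25, adjusted p = 0.593) that was -0.055 without control replicate 3, again not called. Bmp7 ran from -3.86 to -1.98 (median -3.12) in CUS and from -4.56 to -1.96 (median -2.61) in control, a difference of -0.17 (SE 0.42, adjusted p = 0.75). Both probes of Gdf3, a ligand of Acvr1c in fat, differed by -0.18 and -0.11, and Bmp8a, known from brown fat, by 0.12, none of them called.

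Gdf10, a relative of Bmp3, had a broad control range. It ran from -0.16 to 1.27 (median 0.58) in CUS and from -0.88 to 1.78 (median 1.59) in control, where replicate 3 gave the lowest value and the other controls began at 1.47. With all arrays the difference was -0.61 (SE 0.42, adjusted p = 0.244). Without control replicate 3 all CUS arrays lay below all controls and the difference was -1.03 (SE 0.22, limma adjusted p = 0.00162), called also under quantile normalization (-1.07), median scaling (-0.77) and normexp correction (-0.92), but not under spike-in scaling (-0.29). The brighter Gdf11 probe behaved likewise, with -0.22 (SE 0.39, adjusted p = 0.651) on all arrays and -0.62 (SE 0.18, adjusted p = 0.0110) without control replicate 3, a call that quantile normalization (-0.43) and median scaling (-0.36) ended and spike-in scaling turned to 0.12.

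Type I receptors, the kinases that phosphorylate SMADs, were split. Of 7 tested probes 2 were higher, 2 lower and 3 not called, against 24.7% higher and 25.4% lower among all tested probes. Acvr1, a type I receptor for BMPs, had levels of -4.22 to -3.49 (median -3.84) in CUS and -5.86 to -4.83 (median -5.19) in control. No array of one group reached the other, and the measured difference was 1.48 (SE 0.18, adjusted p = 5.75e-05). The probe was well above background on 6 CUS arrays but on only 1 control array, so the size of the difference rests on control values near background, and under normexp correction it was -0.15 and not called. It lies at chr3:40191784-40191843 on the minus strand.

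Bmpr1a, the receptor most often tied to BMP4 and BMP2, was well above background on all 12 arrays. Its level was 0.88 to 1.40 (median 1.28) in CUS and 0.25 to 1.00 (median 0.34) in control. Only CUS replicate 1 and control replicate 3 overlapped, and the difference was 0.77 (SE 0.14, adjusted p = 0.000767), or 1.71-fold. The probe lies at chr16:10062311-10062370 on the minus strand.

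Acvr1b, the main activin receptor of type I, was lower. It ran from -5.44 to -4.87 (median -5.02) in CUS and from -4.39 to -3.44 (median -4.11) in control, without overlap. The difference was -1.08 (SE 0.17, adjusted p = 0.000281), a 2.12-fold lower signal, against -0.31 without scaling and -0.25 under spike-in scaling, not called. The probe lies at chr7:139958363-139958422 on the plus strand.

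Acvrl1, a type I receptor typical of endothelium, had the deepest fall in the family. It ran from 0.28 to 1.38 (median 0.79) in CUS and from 0.49 to 2.65 (median 2.42) in control. Apart from control replicate 3, at 0.49, the controls began at 2.14, above every CUS array. The difference was -1.28 (SE 0.35, limma adjusted p = 0.00916), a 2.43-fold lower signal, and it was -1.61 without control replicate 3. Without scaling it was -0.51 and under spike-in scaling -0.45, not called. Its probe lies at chr7:139884383-139884442 on the plus strand.

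Markers of endothelium moved beside Acvrl1. Of 9 endothelial markers tested 5 were lower and 0 higher, against 25.8% lower and 24.2% higher among all genes, with a median difference of -0.49. All 9 were lower without control replicate 3. Their mean level was -0.61 to 0.40 in CUS, -0.73 on control replicate 3 and 0.87 to 1.32 on the other controls. Pecam1, the standard endothelial adhesion molecule, went from a control median of 4.31 to a CUS median of 2.65. In RNA from a whole preparation, fewer cells of a type and less RNA per cell cannot be told apart, and the part of endothelial RNA in the Acvrl1 value was not tested.

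Acvr1c, the type I receptor that is most typical of adipocytes, was not called by either probe. The brighter probe ran from 5.43 to 6.11 (median 5.88) in CUS and from 5.53 to 6.28 (median 5.65) in control, a difference of 0.09 (SE 0.16, adjusted p = 0.656). The dimmer probe differed by 0.38 (SE 0.22, adjusted p = 0.174). Tgfbr1, the type I receptor of the TGF-betas, ran from -0.80 to 0.01 (median -0.20) in CUS and from -0.34 to 0.13 (median -0.03) in control, a difference of -0.19 (SE 0.14, adjusted p = 0.251). Bmpr1b was well above background on 1 CUS and 4 control arrays and was not tested.

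Type II receptors, which bind ligand first in TGF-beta signalling and activate the type I partner, gave 1 lower call among 6 tested probes and 5 that were not called. Among all tested probes 25.4% were lower. The brighter probe of Acvr2b, a receptor for activins and several GDFs, ran from -0.36 to 0.21 (median -0.05) in CUS and from -0.04 to 0.49 (median 0.34) in control. Its difference was -0.37 (SE 0.12, adjusted p = 0.0194), and it was lost under median scaling and turned to 0.46 under spike-in scaling and 0.41 without scaling, neither of them called. The dimmer Acvr2b probe, at -3.94 to -3.31 (median -3.62) in CUS and -4.07 to -3.55 (median -3.75) in control, differed by 0.13 (SE 0.13, adjusted p = 0.395), so the call rested on 1 of the 2 probes.

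Acvr2a, the other activin type II receptor, differed by 0.12 (SE 0.19, adjusted p = 0.62), and Bmpr2, the type II receptor for BMPs, by 0.02 (SE 0.14, adjusted p = 0.911), with levels of -2.21 to -1.47 in CUS against -1.99 to -1.56 in control and a value of -0.025 without control replicate 3. Both Tgfbr2 probes, for the type II receptor of the TGF-betas, were slightly below 0, at -0.15 (SE 0.12) on the brighter and -0.11 (SE 0.21) on the dimmer probe, and neither was called. Under spike-in scaling they turned to 0.68 and 0.72, and both were called higher there and without scaling. Tgfbr3, betaglycan, the co-receptor that presents Tgfb2, lay between -3.60 and -3.33 in CUS and between -3.94 and -3.30 in control, a difference of 0.07 (SE 0.11, adjusted p = 0.613).

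Among SMADs 1 of 6 tested probes rose, 1 fell and 4 were not called, against 24.7% higher and 25.4% lower among all tested probes. Smad2, which carries TGF-beta and activin signals, ran from -3.06 to -2.48 (median -2.75) in CUS and from -4.04 to -3.06 (median -3.14) in control. The groups met only at their edges, and the difference was 0.61 (SE 0.17, adjusted p = 0.0104), or 1.52-fold, with -0.06 under normexp correction, not called.

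Smad5, which carries BMP signals, ran from -2.07 to -1.92 (median -2.01) in CUS and from -1.76 to -1.51 (median -1.72) in control. The groups did not overlap, although the difference was small, at -0.31 (SE 0.07, adjusted p = 0.00366). Median scaling ended the call, and the sign turned, to 0.52 under spike-in scaling and 0.47 without scaling, each called as higher. Smad1, its close relative, showed no call (-0.10, SE 0.16, adjusted p = 0.615), with CUS levels of 0.45 to 0.91 inside the control range of 0.15 to 1.21.

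Smad4, the shared partner, differed by 0.15 (SE 0.13, adjusted p = 0.353). The inhibitory SMADs, themselves genes that the pathway induces, were also not called. Smad6 differed by 0.03 (SE 0.21, adjusted p = 0.909) and by -0.057 without control replicate 3, and Smad7 ran from 0.87 to 1.32 (median 1.03) in CUS and from 1.10 to 1.43 (median 1.25) in control, a difference of -0.18 (SE 0.09, adjusted p = 0.12). Smad3 was well above background on no array and Smad9 on 1 CUS array, so neither was tested.

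**Figure D3:**
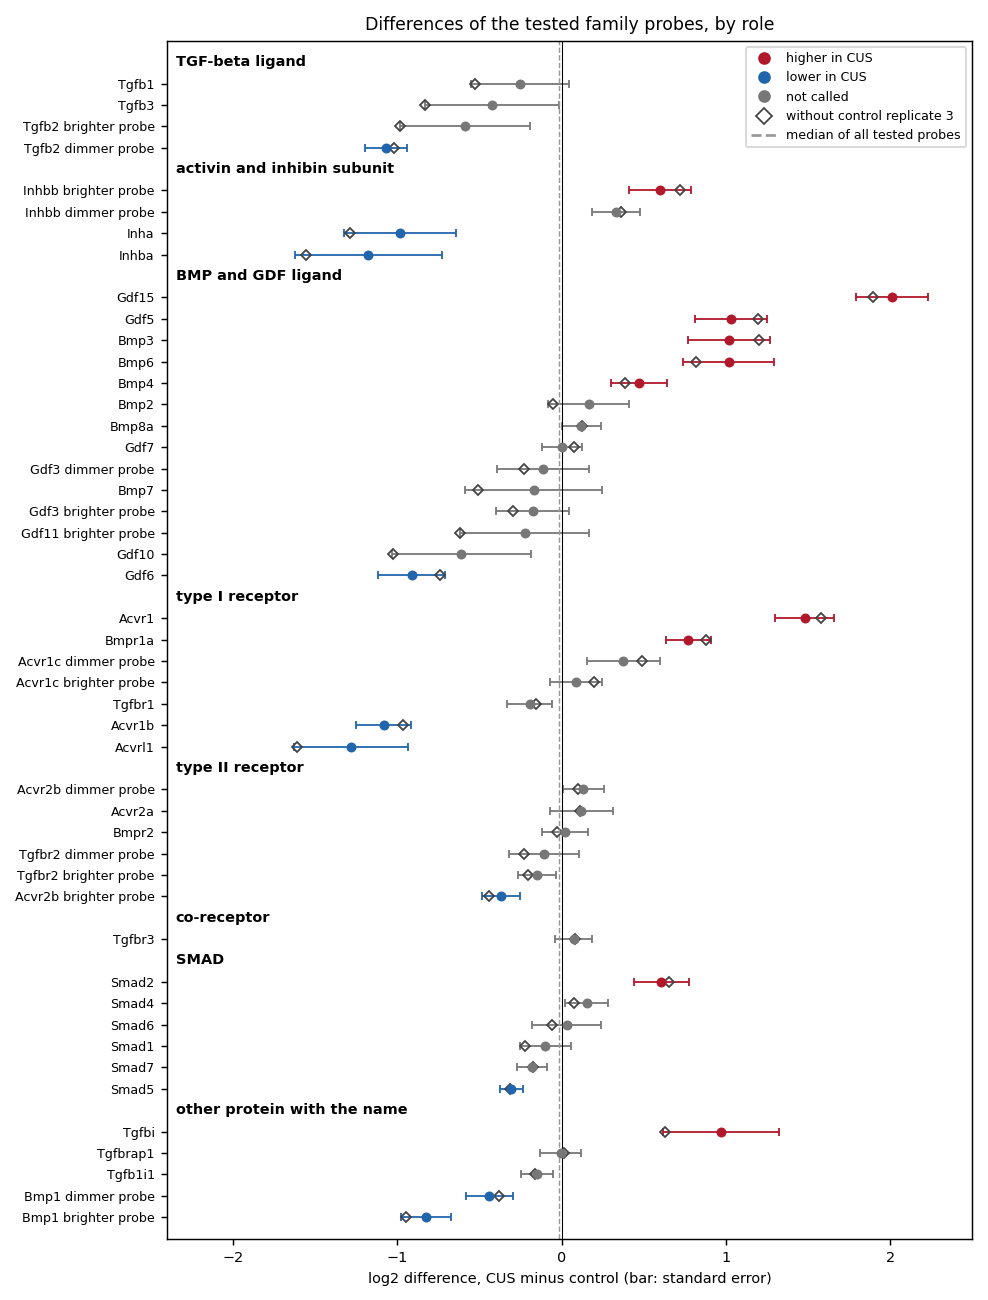
Difference in log2 signal, CUS minus control, of the 47 tested family probes grouped by role, with bars for the standard error, diamonds for the value without control replicate 3 and a dashed line for the median of all tested probes. Tgfb1, Tgfb3, the brighter Tgfb2 probe, Gdf10 and Acvrl1 shift to lower values without that array, while the dimmer Tgfb2 probe moves little, and among SMADs and type II receptors the called values are Smad2 above 0 and Smad5 and the brighter Acvr2b probe below 0.

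Of the 4 genes that only carry the name, Bmp1 and Tgfbi were called. Bmp1, the procollagen C-proteinase, was lower on both probes, from 2.06 to 3.00 (median 2.70) in control to 1.61 to 2.18 (median 1.80) in CUS on the brighter probe, a difference of -0.83 (SE 0.15, adjusted p = 0.000964), and by -0.44 (SE 0.14, adjusted p = 0.0214) on the dimmer probe. Under spike-in scaling these turned to 0.0039 and 0.39, neither called, and without scaling the dimmer probe was called higher (0.34, adjusted p = 0.0266). Tgfbi, a matrix protein induced by TGF-beta, ran from 1.74 to 2.82 (median 2.15) in CUS and from -0.45 to 1.86 (median 1.52) in control, a difference of 0.97 (SE 0.35, adjusted p = 0.0362) that was lost on leaving out any 1 of 5 arrays. Without control replicate 3, which was far below the other controls, it was 0.63 (adjusted p = 0.0141). Tgfb1i1 (-0.15) and Tgfbrap1 (-0.01, and 0.013 without that array) were not called.

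The 12 untested probes belong to Bmp5, Bmp10, Bmp15, Gdf2, Gdf9, Gdf11 (dimmer probe), Inhbc, Inhbe (both probes), Bmpr1b, Smad3 and Smad9. For 7 of them no array was well above background, and these gave a median difference of -0.80, the same as the -0.80 over all 7556 probes on the array that were above background nowhere. Among tested probes with a mean level below -3, 15.3% of all were called higher and 37.8% lower. The 15 family probes at that level included 3 higher and 4 lower. Acvr1 and Bmp6, both higher, passed the filter through the 6 CUS arrays, with only 1 and 0 control arrays well above background. Their direction can therefore not be set against that of dim probes on the whole array.

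Signalling by the family is set as much by its extracellular antagonists and intracellular regulators as by the ligands, and these were read through a list of 58 genes, each from its brightest tested probe. Of 45 tested genes 13 were higher and 6 lower, with a median difference of -0.01, against 24.2% higher and 25.8% lower among all 17417 genes read in that way. The 20 secreted antagonists and modulators split into 5 higher and 6 lower, with a median of -0.41. The 20 intracellular regulators included 7 higher and 0 lower, with a median of 0.08. Without control replicate 3, 14 of the 45 were higher and 11 lower, against 29.6% and 29.9% of all tested probes. The split was 29 higher and 1 lower both under spike-in scaling and without scaling, 19 and 4 under median scaling and 13 and 19 under normexp correction. Among all tested probes the higher and lower shares were 64.1% and 2.42% under spike-in scaling and 67.9% and 3.72% without scaling. They were 43.8% and 14.2% under median scaling and 22.5% and 45% under normexp correction.

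Antagonists of activin moved in opposite directions. Fst, follistatin, ran from -0.44 to 1.06 (median 0.31) in CUS and from -0.20 to 2.62 (median 2.10) in control, and its difference was -1.50 (SE 0.42, limma adjusted p = 0.0105). Control replicate 3 was the lowest control, and the other controls began at 1.91, above every CUS array. Fstl3, follistatin-like 3, a related activin and myostatin binder, lay between -0.93 and -0.34 in CUS and between -1.85 and -1.04 in control, without overlap, and its difference was 0.91 (SE 0.14, adjusted p = 0.000265). A further Fstl3 probe gave 1.18.

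Binding partners of BMPs outside the cell also moved. Sost, sclerostin, fell without overlap from -4.78 to -3.70 in control to -6.23 to -5.39 in CUS, a difference of -1.58 (SE 0.20, adjusted p = 6.67e-05). Its CUS levels were as low as those of Inha, close to background, so the size is uncertain. Twsg1, twisted gastrulation, which binds BMPs together with chordin, was higher (0.65, SE 0.21, adjusted p = 0.0228), from dim control levels of -6.36 to -4.79. Chrd, chordin, was lower by a small amount (-0.38, adjusted p = 0.00855), and Bmper, a BMP-binding modulator, by -0.76 (adjusted p = 0.00171), although a further Bmper probe gave 0.18 and was not called. Thbs1, thrombospondin 1, which can release TGF-beta from its latent form, was higher (0.91, SE 0.22, adjusted p = 0.00427). Ltbp1, which holds latent TGF-beta in the matrix, was not called (-0.49, adjusted p = 0.189), and without control replicate 3 it was lower (-0.77, adjusted p = 0.00314).

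The called regulators at the membrane and inside the cell included Bambi and 7 intracellular genes. Bambi, a pseudoreceptor without a kinase, ran from 0.45 to 0.87 (median 0.57) in CUS and from -0.44 to 0.42 (median 0.16) in control. The groups did not overlap, and the difference was 0.54 (SE 0.14, limma adjusted p = 0.00796). Pmepa1, which binds receptor SMADs, rose by 0.77 (SE 0.21, adjusted p = 0.0082), Tgif1, a SMAD co-repressor, by 0.78 (SE 0.25, adjusted p = 0.0211), Ppm1a, a SMAD phosphatase, by 0.46 (adjusted p = 0.0238) and Nedd4l, a ubiquitin ligase, by 0.33 (adjusted p = 0.035). Zfyve9, which presents Smad2 to the receptor, also rose, by 0.40 (adjusted p = 0.0348), and turned to -0.34 under normexp correction, where it was called lower (adjusted p = 0.0049). Smurf1 (-0.27), Smurf2 (-0.08) and Wwp1 (-0.01), ubiquitin ligases that oppose the pathway, and the co-repressors Ski (-0.15) and Skil (0.07) were not called, although a further Ski probe was lower (-0.37). Eng, endoglin, an endothelial co-receptor, was not called (-0.14, adjusted p = 0.725), nor without control replicate 3 (-0.43, adjusted p = 0.0811).

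Target genes were read from a list of 32 genes. Of 29 tested 3 were higher and 10 lower, against 24.2% higher and 25.8% lower among all genes, with a median difference of -0.35. Without control replicate 3 these counts were 4 and 14, with a median of -0.55. The counts hung on the scaling, with 11 higher and 0 lower both under spike-in scaling and without scaling, 5 and 4 under median scaling and 4 and 13 under normexp correction. Among all tested probes the higher and lower shares were 64.1% and 2.42% under spike-in scaling and 67.9% and 3.72% without scaling. They were 43.8% and 14.2% under median scaling and 22.5% and 45% under normexp correction. Several lists overlap in what they mark: the matrix and contractile genes among the targets are also expressed by fibroblasts and smooth muscle.

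Among targets of TGF-beta and activin 2 of 18 were higher and 5 lower, against 24.2% higher and 25.8% lower among all genes. Acta2, smooth muscle actin, ran from -0.66 to 0.58 (median -0.08) in CUS and from -0.16 to 2.29 (median 1.88) in control, a difference of -1.71 (SE 0.36, limma adjusted p = 0.00221). Col1a1, the collagen I chain, ran from 2.66 to 4.04 (median 3.06) in CUS and from 3.27 to 5.33 (median 5.06) in control, a difference of -1.64 (SE 0.34, adjusted p = 0.00188). In both, control replicate 3 was the only control inside the CUS range. Col3a1 (-1.17, adjusted p = 0.000719), Tagln (-1.35, adjusted p = 0.0427) and Fn1, fibronectin (-0.67, adjusted p = 0.00367, turning to 0.16 under spike-in scaling), were also lower. Lox, the collagen cross-linking oxidase, was higher (0.58, adjusted p = 0.00815). Ctgf, connective tissue growth factor, was not called (-0.71, adjusted p = 0.194), and without control replicate 3 it was lower (-1.13, adjusted p = 0.0025).

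Smooth muscle and pericyte markers moved beside these genes. Of 8 tested 5 were lower and 1 higher, against 25.8% lower and 24.2% higher among all genes, with a median difference of -1.24. Their mean level was -1.61 to -0.37 in CUS, -1.36 on control replicate 3 and 0.11 to 1.01 on the other controls. Without control replicate 3, 7 were lower and 1 higher. Of 6 fibroblast markers 2 were higher and 0 lower, and without that array 2 were higher and 3 lower, with a median of -0.35. Macrophage markers (2 of 6 higher), mesothelial markers (3 of 4 higher), mast cell markers (4 of 5 higher) and red blood cell genes (5 of 5 higher) had mean levels of -0.13 to 0.71, -1.15 to -0.41, -2.82 to -1.41 and 4.10 to 4.97 in CUS and of -0.95 to 0.11, -3.13 to -0.85, -5.21 to -4.67 and -0.31 to 0.45 in control. Of the 2 higher macrophage markers, Csf1r disagreed between probes. Its brightest probe differed by 1.25, and a further probe by -1.25, called lower (limma adjusted p = 6.76e-06). What these other cells contributed to the family's values was not tested.

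Among targets of BMP 1 of 11 was higher and 5 lower, against 24.2% higher and 25.8% lower among all genes. Id1, the textbook early BMP target, was lower by -0.44 (SE 0.17, limma adjusted p = 0.0405), a call that was lost on leaving out any 1 of 9 arrays and turned to 0.39 under spike-in scaling. Id2 was not called with all arrays (-0.05, adjusted p = 0.903) or without control replicate 3 (-0.39, adjusted p = 0.0745). Id3 lay in the other direction at 0.41 (SE 0.16, adjusted p = 0.0534), and it was called higher without control replicate 3 (0.45, adjusted p = 0.0408). Id4 was lower (-0.76, SE 0.23, adjusted p = 0.0156). Hamp (-0.73, adjusted p = 0.00222), which encodes hepcidin, Hey1 (-0.55, adjusted p = 0.0228) and Gata2 (-0.70, adjusted p = 0.00673) were lower, and Atoh8 was higher (0.73, adjusted p = 0.00259). Under spike-in scaling Id4, Hamp, Hey1 and Gata2 turned to 0.07, 0.10, 0.28 and 0.13.

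**Figure D4:**
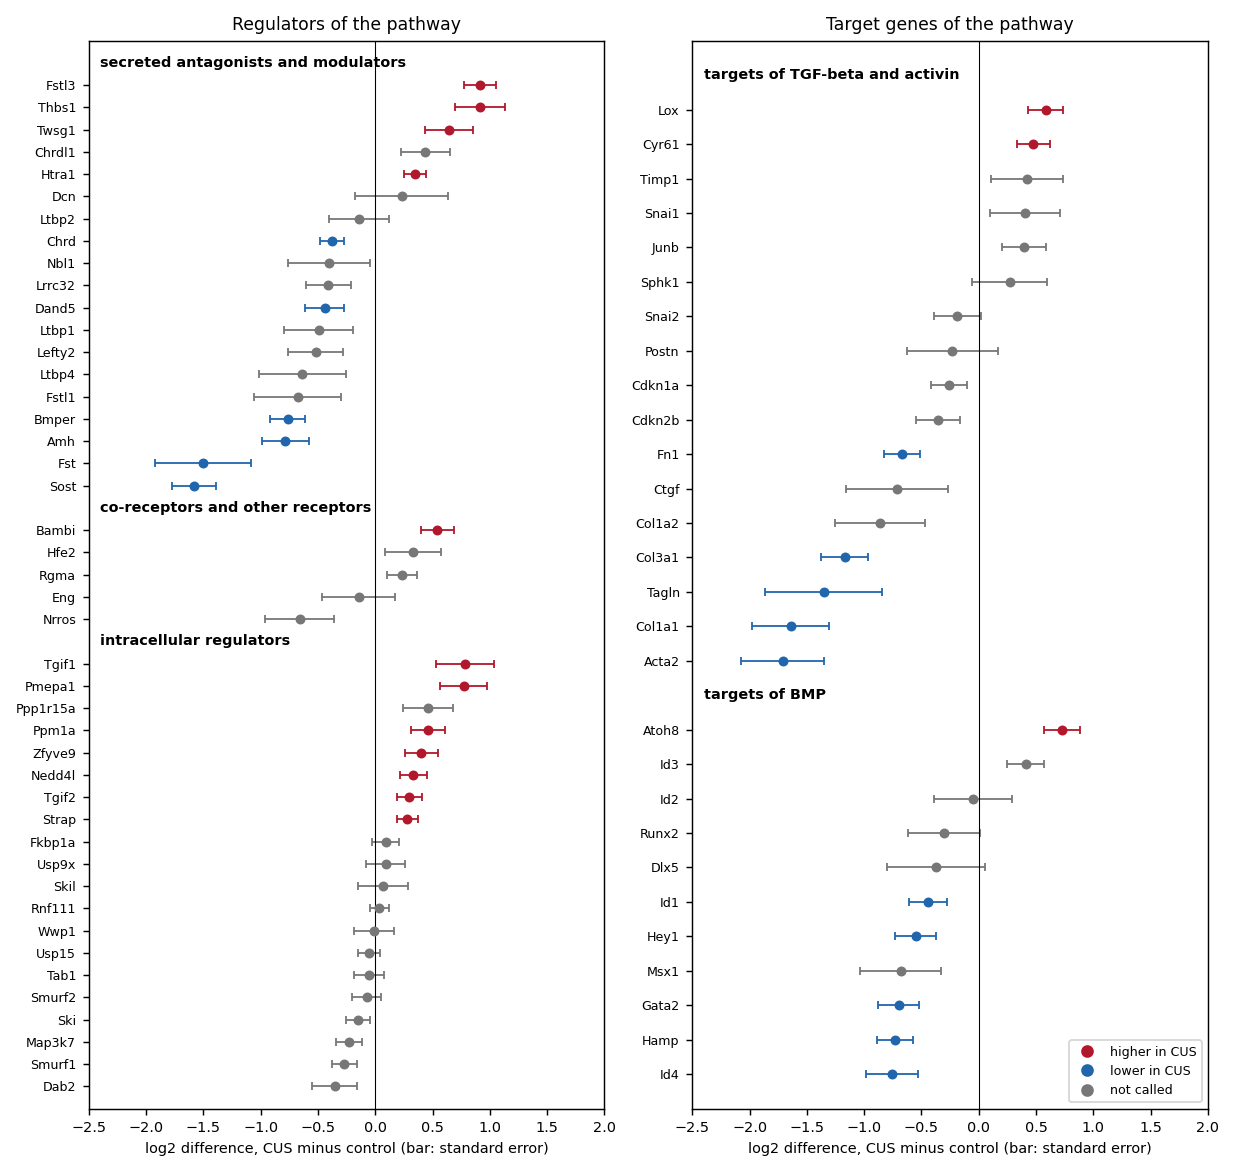
Difference in log2 signal, CUS minus control, of 44 of the tested regulators and 28 of the tested target genes of the pathway, each from its brightest tested probe, with bars for the standard error. All 7 called intracellular regulators lie above 0, the secreted antagonists spread from Sost at -1.58 to Fstl3 at 0.91, and 10 of the 13 called targets lie below 0.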

How the data were processed

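Processed signal intensity, a linear brightness per spot, was taken from the scanner files that the authors deposited, 1 per rat, made with Agilent Feature Extraction 10.7.3.1 per the file headers and annotated on rn4. The authors also deposited a table of intensity values per probe that shows the same quantiles in every column; it was used as an alternative. An exon array is named in the methods, but the headers describe a gene expression design. Control spots and outlier spots were left out, spots of 1 probe were averaged, and log2 signal minus the log2 75th percentile of each array was fitted with limma 3.58.1 in R 4.3.3 (lmFit, eBayes, two-sided, group as the only term), for the 19727 probes that passed the scanner's background mark on 6 or more of the 12 arrays. The unpaired test of the methods was an alternative, as were other scalings, background correction, filters, array weights, a replicate block and leaving out each array. Groups and replicate numbers came from the sample titles.

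Family members were taken by gene name; other genes were named through accessions or symbols in RefSeq tables, and read from their brightest tested probe. Of the listed genes, 2 are counted in the totals and not reported here singly. The members, gene lists and markers were chosen with earlier results of these data known. Values in full were given for members called at 2-fold or more and for a fixed set of main ligands, receptors and SMADs. On simulated arrays with 19721 probes, limma found 15 of 64 probes shifted by a log2 difference of 0.5, 62 of 72 shifted by 1 and 62 of 64 shifted by 2. It also called 8 unshifted ones. Few probes were shifted there, whereas 50.1% of tested probes were called in these data, and no slide, scaling or outlying array was simulated. These rates therefore need not hold here. The number of arrays limits the precision. Figures were drawn with matplotlib 3.10.9.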

Additional observations from a re-analysis of the deposited data

Results flagged for a closer look

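Within each group of 6 arrays, the highest and the lowest array were compared with the nearest of the others by Dixon's ratio, for 146 groups in all. An array stood apart in 24, where chance flags about 1 in 20 groups, and 21 of the 24 were control replicate 3.

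Among ligands, control replicate 3 lay below the other controls for Gdf10 (-0.88, others 1.47 to 1.78), the brighter Gdf11 probe (-4.74, others -2.61 to -2.21), Inha (-6.16, others -4.67 to -3.88), Inhba (-2.62, others -0.73 to 0.30), Tgfb1 (-4.46, others -2.997 to -2.60), the brighter Tgfb2 probe (-5.30, others -3.44 to -2.70) and Tgfb3 (-2.67, others -0.54 to -0.00), in log2 signal relative to the 75th percentile. Among receptors it lay below for Acvrl1 (0.49, others 2.14 to 2.65) and the brighter Acvr2b probe (-0.04, others 0.31 to 0.49), and above for the brighter Acvr1c probe (6.28, others 5.53 to 5.79). The matrix protein Tgfbi was also low on it (-0.45, others 1.38 to 1.86).

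Regulators and targets gave the same array. It was low for Eng (-1.50, others -0.06 to 0.59), Fst (-0.20, others 1.91 to 2.62), Tgif1 (-1.42, others -0.36 to 0.01), Acta2 (-0.16, others 1.57 to 2.29), Col1a1 (3.27, others 4.82 to 5.33), Ctgf (-0.68, others 1.32 to 2.33), Tagln (-0.74, others 2.04 to 2.76), Gata2 (-3.19, others -2.43 to -2.03) and Id2 (-1.39, others 0.47 to 0.79). It was high for Atoh8 (0.37, others -0.62 to -0.34).

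Outside that array, CUS replicate 1 was low for Bmpr1a (0.88, others 1.21 to 1.40), CUS replicate 6 was low for Tgfbr1 (-0.80, others -0.22 to 0.01), and control replicate 1 was high for Smad5 (-1.51, others -1.76 to -1.69).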

How the results depend on the processing

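With 75th percentile scaling 10 family probes were higher, 10 lower and 9 changed at least 2-fold, and 19 regulators and 13 targets were called. Without scaling these were 31 higher, 0 lower and 30 regulators; with spike-in scaling 31, 0 and 30; with median scaling 16 higher and 5 lower; with normexp correction 23 lower, 3 at least 2-fold and 32 regulators; with no filter on dim probes 20 lower; with array weights 18 lower, 31 regulators and 20 targets. With control replicate 3 left out as well, settings chosen after seeing the data, median scaling gave 17 higher, spike-in scaling 25 higher and 2 lower, and normexp correction 25 lower and 3 at least 2-fold. Leaving out each array gave 8 to 10 higher, 8 to 15 lower, 6 to 9 at least 2-fold, 15 to 25 regulators and 10 to 18 targets. Counts in the other settings were within 1.5 times. Called shares of all tested probes, higher then lower, moved as well. They were 24.7% and 25.4% with 75th percentile scaling, 67.9% and 3.72% unscaled and 64.1% and 2.42% on the spike-ins. Median scaling gave 43.8% and 14.2%, normexp correction 22.5% and 45%, and array weights 33% and 33.7%. Keeping all dim probes gave 16.6% and 42.4%. Without control replicate 3, median scaling gave 45.1% and 18.4%, spike-in scaling 60.2% and 4.71% and normexp correction 25.8% and 46.4%.

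Numbers 1 to 6 are shared between the groups but name no common origin. Deviations of same-numbered arrays correlated at 0.11, -0.19, 0.43, 0.12, 0.23 and 0.04, and 2 of 6 numbers matched best with themselves, so the numbers do not pair the rats. With the replicate block the counts were 10, 10, 9, 21 and 17, and of the 73 single probes and genes followed only Id3 changed its call, to called (0.41, adjusted p = 0.0245).

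Signs turned as follows, in log2 difference, CUS minus control. With array weights Acvr2a was -0.019 and Bmp2 -0.062. With quantile normalization Bmp7 was 0.090, Gdf11 brighter probe 0.0095, Gdf3 dimmer probe 0.19, Tgfb1 0.022, Tgfb1i1 0.067, Tgfbr2 dimmer probe 0.038 and Tgfbrap1 0.15, and in the values deposited by the authors they were 0.097, 0.011, 0.20, 0.036, 0.068, 0.042 and 0.16. With median scaling these were 0.097, 0.043, 0.15, 0.015, 0.12, 0.16 and 0.26, with Gdf3 brighter probe 0.092, Smad1 0.17, Smad7 0.089, Tgfbr1 0.073, Tgfbr2 brighter probe 0.12, Eng 0.12 and Id2 0.21.

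Without scaling, then with spike-in scaling, Acvr2b brighter probe was 0.41 and 0.46, Bmp1 dimmer probe 0.34 and 0.39, Bmp7 0.61 and 0.66, Gdf10 0.17 and 0.22, Gdf11 brighter probe 0.55 and 0.61, Gdf3 dimmer probe 0.66 and 0.72, Gdf3 brighter probe 0.60 and 0.65, Smad1 0.68 and 0.73, Smad5 0.47 and 0.52, Smad7 0.60 and 0.65, Tgfb1 0.53 and 0.58, Tgfb1i1 0.63 and 0.68, Tgfb2 brighter probe 0.19 and 0.24, Tgfb3 0.35 and 0.41, Tgfbr1 0.58 and 0.64, Tgfbr2 dimmer probe 0.67 and 0.72, Tgfbr2 brighter probe 0.63 and 0.68, Tgfbrap1 0.77 and 0.82, Ctgf 0.065 and 0.12, Eng 0.63 and 0.69, Fn1 0.11 and 0.16, Gata2 0.081 and 0.13, Hamp 0.047 and 0.099, Hey1 0.23 and 0.28, Id1 0.33 and 0.39, Id2 0.72 and 0.78, Id4 0.020 and 0.072 and Ltbp1 0.28 and 0.34. Bmp1 brighter probe turned with spike-in scaling only, to 0.0039. Of the turned values, Smad1, Smad5, Smad7, Tgfb1i1, Tgfbr1, both Tgfbr2 probes and Tgfbrap1 were called higher in both settings. Gdf3 dimmer probe was called higher with spike-in scaling only, and Bmp1 dimmer probe without scaling only. With control replicate 3 left out, spike-in scaling gave Gdf11 brighter probe 0.12 and Tgfb1 0.22. With normexp correction Acvr1 was -0.15, Acvr2a -0.43, Acvr2b dimmer probe -0.35, Bmp6 -0.33, Bmp8a -0.38, Bmpr2 -0.13, Gdf7 -0.20, Smad2 -0.057, Smad4 -0.33, Tgfbr3 -0.35 and Zfyve9 -0.34. Of these, Acvr2a, Acvr2b dimmer probe, Bmp6, Bmp8a, Smad4, Tgfbr3 and Zfyve9 were called lower. All of them are dim, and the offset of 50 in that correction leaves their sign there unreadable.

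Leaving out single arrays turned no called value. Ranges that crossed 0 were -0.037 to 0.22 for Acvr2a, -0.055 to 0.29 for Bmp2, -0.51 to 0.013 for Bmp7, -0.034 to 0.11 for Bmpr2, -0.23 to 0.047 for Gdf3 dimmer probe, -0.069 to 0.074 for Gdf7, -0.39 to 0.060 for Id2, -0.10 to 0.16 for Smad6, -0.23 to 0.053 for Tgfbr2 dimmer probe, -0.0069 to 0.12 for Tgfbr3 and -0.073 to 0.068 for Tgfbrap1. The cause of these changes was not tested. Signal over background limits Bmp6, Acvr1, Inha and the 12 untested probes, and the levels of Sost in CUS and of Twsg1 in control were similarly low. The CUS levels of Acvr1b and of the dimmer Tgfb2 probe were also low, though well above background on all 12 arrays.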

Other observations

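The base composition of the probes was described without a test. The median share of G and C was 41.7% in the 10 family probes called higher, 50.8% in the 10 called lower and 41.7% in the 27 tested and not called, against 45% over all tested probes, and the ranges overlapped (35% to 55% in the higher and 43.3% to 55% in the lower probes). A poly(A) hexamer on the transcript strand was present in 1 of the 10 higher probes, in 0 of the 10 lower probes and in 4 of the 27 not called.

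Among genes of the family with 2 tested probes, which number 7, the distance between the probe starts in rn4 was 82698 bases for Tgfb2, 14986 for Tgfbr2, 14858 for Bmp1, 4525 for Acvr1c, 3234 for Acvr2b, 1107 for Inhbb and 186 for Gdf3. Bmp1 was the only one of them for which both probes were called. The rn4 span was longer than the probe for the dimmer Bmp1 probe (408 bases) and for Bmp8a (3262 bases), so each of these crosses a gap in the genome.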
